A study of Mus musculus with 12 samples.

Results

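Planar cell polarity is the system by which cells align their asymmetry, and their movements, within a sheet or a tissue. The genes described are 10 of its core components, taken by name from the deposited table: Vangl1, Vangl2, Celsr1, Celsr2, Celsr3, Prickle1, Prickle2, Scrib, Ptk7 and Ror2. All 10 were among the 24279 genes of the table, and all 10 passed the filter on low counts, which left 15186 genes to test. They were read in polyadenylated RNA from 12 libraries of primary mouse embryonic fibroblasts, taken into culture from embryos of embryonic day 12.5.

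The libraries form 4 groups of 3. Fortified mutant cells and fortified wild type cells came from F3 mice kept on 10 ppm folic acid and were cultured with 3600 ng/mL folic acid. Moderate mutant cells and moderate wild type cells came from F3 mice kept on 2 ppm folic acid and were cultured with 225 ng/mL. Mutant cells are homozygous for a change in Rsg1, written Rsg1L3P/L3P, and wild type cells are labelled wt. Diet and medium changed together, so the effect of one cannot be told apart from that of the other, and folic acid level below means both. Neither the origin of a group's libraries (separate embryos, litters or cultures) nor the part of the embryo used is stated in the labels, so p-values measure the spread between these libraries only. The folic acid level and genotype of each column were read from the column number that each sample's description gives.

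In the core system, Celsr proteins are atypical cadherins that bridge neighbouring cells. Vangl proteins are membrane proteins that gather on one side of a cell together with the cytoplasmic Prickle proteins, opposite Frizzled and Dishevelled. Scrib is a scaffold protein that binds Vangl2, Ptk7 is a receptor-like protein without kinase activity, and Ror2 is a receptor for Wnt5a. In mice, loss of Vangl2, Scrib, Celsr1 or Ptk7 function can leave the neural tube open, and folic acid intake is known to lower the frequency of neural tube defects in people. Rsg1 acts with the CPLANE proteins, a group first found as planar polarity effectors in flies and known in mice for building cilia.

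Depth ran from 39339190 to 48475963 estimated counts per library. The first principal component held 30.2% of the variance and set fortified mutant 2 (48.2), fortified mutant 3 (57.5) and moderate wild type 1 (68.0) at one end and moderate wild type 2 (-68.6) and 3 (-53.7) at the other, with the remaining 7 libraries between -18.9 and 4.74. Rsg1 itself was low in every library, at 0.488 to 1.12 CPM (TMM-scaled counts per 1000000); a total per gene cannot show which allele a library carries, so this level does not check the labels. Xist was above 1000 counts in all 6 mutant libraries and in 2 of the 6 wild type libraries, so genotype is unevenly spread over that difference. Markers of epithelium and endothelium were mixed. Summed over 11 epithelial genes the level was 23.4 to 123 TPM, with Epcam at most 0.80 CPM and Cdh1 0.78 CPM but Krt19 up to 48.4 CPM and Krt18 up to 28.5 CPM. Summed over 7 endothelial genes it was 7.12 to 39.8 TPM, with Pecam1 at most 0.65 CPM and Cldn5 0.22 CPM but Kdr up to 40.5 CPM, Emcn up to 26.4 CPM and Tek up to 20.5 CPM. Fibroblast markers were abundant, with a summed level of 7068 to 21405 TPM (transcripts per 1000000, a level per length) over 12 genes, but muscle transcripts were present as well, Myog running from 30.1 to 506 TPM.

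Levels per length spanned a wide range. Ptk7 led with a mean of 171 TPM (range 85.7 to 242 over the 12 libraries). Prickle1 at 41.5 TPM, Ror2 at 32.8 TPM and Scrib at 31.0 TPM followed. Ptk7 lay above Prickle1 in 12 of 12 libraries with no overlap of their ranges, whereas Ror2 lay above Scrib in only 7 of 12, so the order of these neighbours did not exceed their spread. Vangl2 averaged 15.5 TPM and Vangl1 7.38 TPM, with Vangl2 the higher in 11 of 12 libraries. Prickle2 averaged 6.54 TPM, below Vangl1 in 8 of 12 libraries. The 3 Celsr genes came last, Celsr2 at 2.09 TPM, Celsr1 at 1.29 TPM and Celsr3 at 0.958 TPM, all below Prickle2 on average. Celsr2 exceeded Celsr1 in 9 of 12 libraries, and Celsr1 exceeded Celsr3 in 9 of 12. In counts, Celsr3 ran from 59 to 921 per library, and Vangl2, whose minimum was the lowest of the 7 genes outside the Celsr family, from 404 to 977.

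The genes differed in how steady they were. Scrib was the steadiest, with a highest library 1.62 times its lowest in CPM and a biological coefficient of variation at percentile 9.99 of the tested genes. Celsr3 spread the most, 13.4-fold between its highest and lowest library (percentile 96.1), followed by Celsr1 at 8.24-fold (percentile 91.8). The other 7 genes spanned 1.87-fold (Prickle2) to 3.58-fold (Prickle1). Moderate wild type 3 held the lowest value of all 12 libraries for 6 of the 10 genes, and moderate wild type 1 the highest for the 3 Celsr genes.

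**Figure D1:**
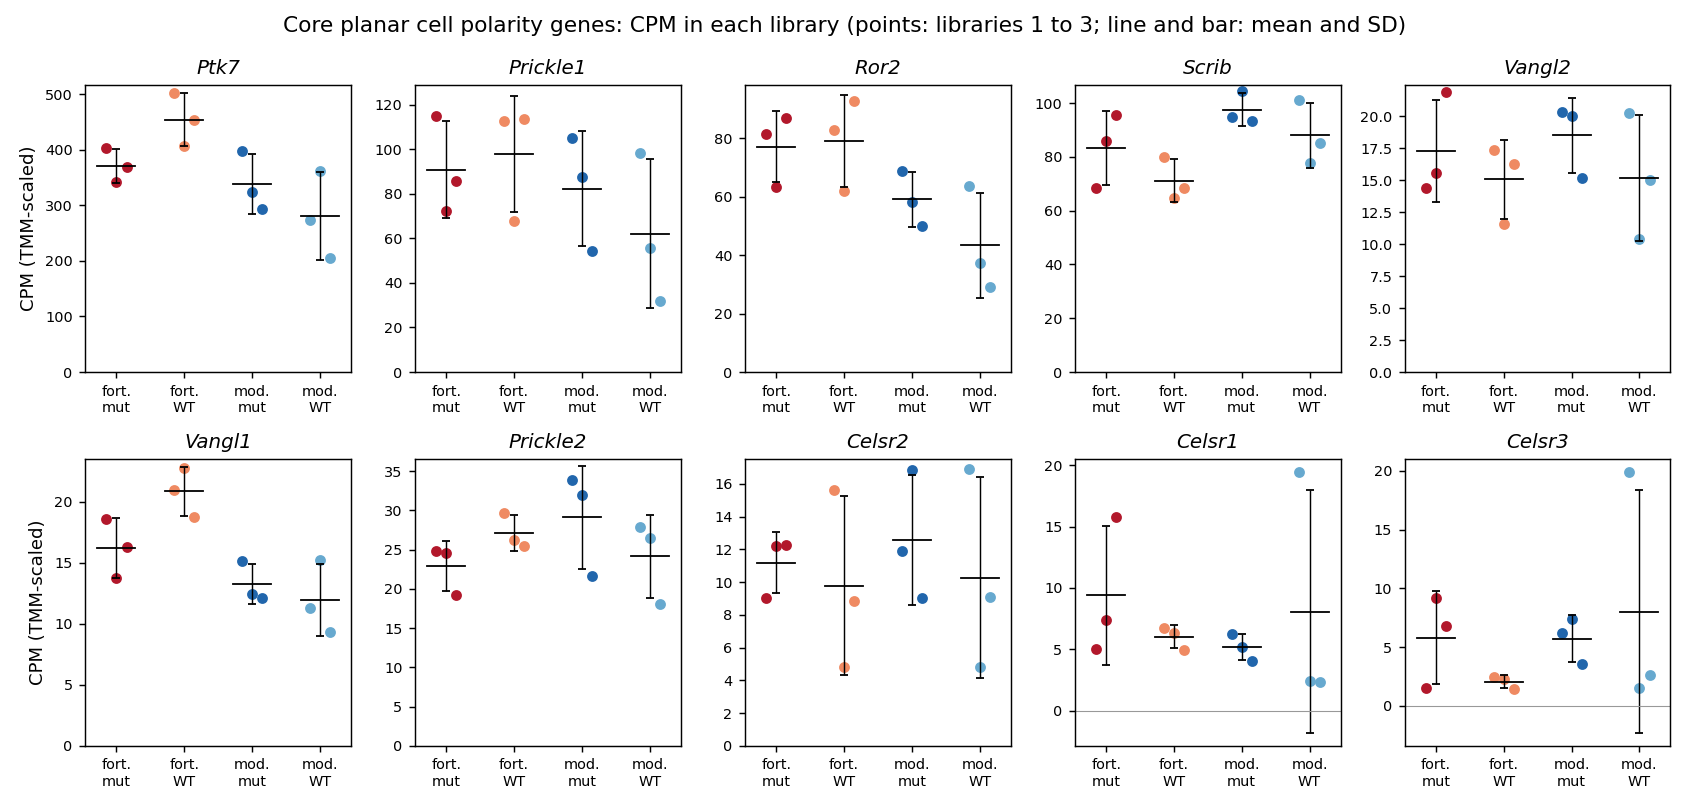
Level of each core planar cell polarity gene in CPM (vertical axis, from 0 or below where the SD reaches under 0), by group along the horizontal axis: fortified mutant, fortified wild type, moderate mutant, moderate wild type. Points are libraries 1 to 3, lines and bars the mean and SD. Vangl1 lies between 18.8 and 22.8 CPM in fortified wild type cells and between 9.36 and 15.2 CPM in moderate wild type cells, and the moderate wild type bars of Celsr1 and Celsr3 are set by 1 library near 20 CPM.

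The profiles of the 10 genes over the libraries were compared in pairs. By the root mean square difference of their log2 CPM profiles, each centred on its own mean, the closest pairs were Vangl1 and Ptk7 (0.14), Prickle1 and Ror2 (0.22) and Vangl2 and Scrib (0.22). The most distant pair was Vangl1 and Celsr3 (1.36). Neither the Vangl pair (0.54) nor the Prickle pair (0.42) was among the closest, so by this difference these paralogues were not each other's nearest of the 10. The difference is also small for genes that vary little. Vangl2 and Scrib were as far apart as Scrib was from its own mean (root mean square 0.22). A small difference alone therefore does not tell a shared profile from low spread. These values describe 12 libraries that share groups and depth and carry no test.

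Promoter sequence is shown for Ptk7, Prickle1 and Ror2, which belong to the closest pairs, and for Celsr3, the most variable of the 10. Each is the 250 bases before a RefSeq start on GRCm38.p6, the only one in the table for 3 of them and the first of 2 for Prickle1, on the gene's own strand, with CG dinucleotides in capitals. RefSeq entries were matched for 7 of the 10 genes, and Vangl1, Celsr1 and Scrib are named only. Vangl2, also in a closest pair, was matched but is not printed (18 CG dinucleotides). Ptk7 is taken from chr17:46629505-46629754 (minus strand), Prickle1 from chr15:93595903-93596152 (minus), Ror2 from chr13:53286125-53286374 (minus) and Celsr3 from chr9:108825795-108826044 (plus).
Ptk7: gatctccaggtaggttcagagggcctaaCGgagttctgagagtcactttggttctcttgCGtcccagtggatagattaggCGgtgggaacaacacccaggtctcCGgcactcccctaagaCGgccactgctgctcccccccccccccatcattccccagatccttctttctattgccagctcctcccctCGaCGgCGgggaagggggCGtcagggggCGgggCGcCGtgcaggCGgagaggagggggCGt
Prickle1: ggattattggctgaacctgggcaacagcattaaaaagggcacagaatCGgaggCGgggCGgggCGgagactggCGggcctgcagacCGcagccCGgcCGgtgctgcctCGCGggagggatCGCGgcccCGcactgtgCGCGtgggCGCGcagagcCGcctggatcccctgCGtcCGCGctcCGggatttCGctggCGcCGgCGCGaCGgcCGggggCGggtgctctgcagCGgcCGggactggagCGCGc
Ror2: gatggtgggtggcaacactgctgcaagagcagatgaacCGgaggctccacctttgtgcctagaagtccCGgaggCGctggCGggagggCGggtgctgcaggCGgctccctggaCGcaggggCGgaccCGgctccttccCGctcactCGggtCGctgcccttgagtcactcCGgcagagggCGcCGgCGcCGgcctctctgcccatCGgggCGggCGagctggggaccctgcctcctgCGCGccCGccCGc
Celsr3: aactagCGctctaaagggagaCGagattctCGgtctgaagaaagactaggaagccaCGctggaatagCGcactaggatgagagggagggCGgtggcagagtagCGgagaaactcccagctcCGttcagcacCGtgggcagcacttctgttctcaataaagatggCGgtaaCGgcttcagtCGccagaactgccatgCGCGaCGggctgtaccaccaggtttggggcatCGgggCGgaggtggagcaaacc
These stretches hold 14 CG dinucleotides in Ptk7, 34 in Prickle1, 24 in Ror2 and 17 in Celsr3, against a median of 6 over 32851 RefSeq promoters of the same length. Prickle1 had more CG dinucleotides than 96.5% of those promoters and Ptk7 more than 70.6% of them. The window of the other Prickle1 start holds 16 (more than 74.6%) and no CCAAT. The letters GGGCGG, searched on both strands, occur 1 time in Ptk7, 3 times in Prickle1, 4 times in Ror2 and 2 times in Celsr3, and in 32.7% of all promoters at least once; each match also holds a CG. CCAAT, found in 33.8% of promoters, is present only in Prickle1 of these 4, and TATAAA, found in 12.4%, in none of them. GACCACCCA, the motif bound by Gli factors, was in none of the 4 windows and in 0.225% of promoters. These are matches of letters in 1 window and say nothing of binding.

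The first comparison set fortified against moderate folic acid, averaged over both genotypes. The receptor gene Ror2 and the membrane protein gene Vangl1 rose, while none of the 10 fell at an adjusted p under 0.05 (Benjamini and Hochberg over all tested genes). These 2 of 10 stand beside 17.8% of all tested genes called in either direction (8.9% higher, 8.86% lower), so the share is close to that of the whole table. DESeq2 called 24.4% of the genes it gave an adjusted p and limma-voom 25.3% of all tested genes. Ror2 and Vangl1 passed in both of these tools, and Ptk7 passed in DESeq2 as well. Ror2, which spans chr13:53109312-53286124 on the minus strand (GENCODE M21, mm10), was at 81.3, 63.4 and 86.7 CPM in fortified mutant cells and 82.7, 61.9 and 92.6 CPM in fortified wild type cells. In moderate mutant cells it was at 68.7, 58.3 and 50.1 CPM, and in moderate wild type cells at 63.6, 37.5 and 29.1 CPM. The levels overlapped: 4 of the 6 fortified libraries exceeded every moderate library, while fortified mutant 2 and fortified wild type 2 lay below moderate mutant 1 and moderate wild type 1. The fitted log2 fold change of Ror2 was 0.63 (SE 0.19, edgeR adjusted p = 0.0414).

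Vangl1 (chr3:102153583-102204693, minus strand) was at 18.6, 13.7 and 16.3 CPM in fortified mutant cells and 21.01, 22.8 and 18.8 CPM in fortified wild type cells. It was at 15.1, 12.4 and 12.2 CPM in moderate mutant cells and 11.3, 15.2 and 9.36 CPM in moderate wild type cells. The 3 fortified wild type libraries were the highest of the 12, and among mutant libraries the levels overlapped. Its log2 fold change was 0.55 (SE 0.15, edgeR adjusted p = 0.0289). Both calls changed with single libraries: Ror2 passed in 2 and Vangl1 in 6 of the 12 fits that each left out 1 library, although the change was positive in all 24 other settings. Neither passed on TPM, where the median of all genes moved by -0.15 on the log2 scale. Without moderate wild type 2 and 3, which leaves 1 moderate wild type library, Ror2 had a log2 fold change of 0.35 (edgeR adjusted p = 0.178) and Vangl1 0.59 (edgeR adjusted p = 0.0475). The 8 libraries with Xist hold 1 wild type library per folic acid level, and none of the 15670 genes tested in them passed. Vangl1 overlaps the antisense gene Gm16160 by 738 bases, and whether reads were assigned by strand is not given in the sources used here.

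Ptk7 (chr17:46564471-46629504, minus strand) shares its whole span of 65034 bases with the lincRNA gene Gm26904 on the other strand. Whether its reads were assigned by strand is likewise not given. Ptk7 had the profile closest to Vangl1. It was at 403, 341 and 369 CPM in fortified mutant cells and 502, 407 and 454 CPM in fortified wild type cells. In moderate cells it was at 398, 325 and 293 CPM with the mutation and at 273, 362 and 206 CPM without it. Its log2 fold change of 0.41 missed the threshold (SE 0.15, edgeR adjusted p = 0.0684), but passed in DESeq2 (adjusted p = 0.0440) and without moderate wild type 2 (0.53, edgeR adjusted p = 0.0253). The 4 libraries with the highest fibroblast marker score, the 3 fortified wild type libraries and fortified mutant 1, were also the 4 highest for both Vangl1 and Ptk7. That score, the mean log2 CPM of 12 marker genes about their own means, ran from 0.60 to 1.16 in fortified wild type cells and from -0.93 to 0.44 in the other 9 libraries, and its part in these values was not tested. Ror2 shared 3 of its 4 highest libraries with the fibroblast score. Other marker lists differed as well. Moderate wild type 2 and 3, where Ror2 was lowest, had the lowest cartilage marker scores (-1.66 and -1.27). Their summed blood and macrophage markers were the highest (186 and 240 TPM), although the score of that list was highest in moderate mutant 2 (1.41). The part of these lists was not tested either. In bulk RNA, fewer cells of a type and less RNA per cell cannot be told apart.

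The scaffold gene Scrib pointed the other way. It was at 68.5, 85.8 and 95.5 CPM in fortified mutant cells and 80.0, 64.7 and 68.6 CPM in fortified wild type cells, against 94.9, 105 and 93.3 CPM in moderate mutant cells and 101, 77.7 and 85.2 CPM in moderate wild type cells. The fitted log2 fold change was -0.27 (SE 0.11, edgeR adjusted p = 0.113). It passed in limma on TPM (-0.48, adjusted p = 0.0303, with 1 added to each value), in a fit that called 3154 genes lower and 587 higher. It also passed when fortified mutant 2 and 3 and moderate wild type 1 were left out (-0.37, edgeR adjusted p = 0.0475). Vangl2, the partner of Scrib in mice, ran from 11.6 to 21.9 CPM in fortified cells and from 10.4 to 20.3 CPM in moderate cells, with a log2 fold change of -0.06 (SE 0.19). Over the 10 genes the median log2 fold change was 0.08, against 0.00036 over all tested genes, with 5 higher and 5 lower.

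Prickle1 and Prickle2, cytoplasmic partners of Vangl, did not pass. Prickle1 was at 115, 72.1 and 85.7 CPM in fortified mutant cells and 112, 67.7 and 114 CPM in fortified wild type cells. It was at 105, 87.4 and 54.3 CPM in moderate mutant cells and 98.1, 55.8 and 32.0 CPM in moderate wild type cells. Each group held at least 1 library at 98.1 CPM or more, and the log2 fold change was 0.40 (SE 0.27, edgeR adjusted p = 0.314). Prickle2 ran from 19.2 to 29.7 CPM in fortified cells and from 18.1 to 33.8 CPM in moderate cells, with a log2 fold change of -0.09 (SE 0.15). It overlaps the processed pseudogene Gm17797 by 997 bases on the other strand.

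**Figure D2:**
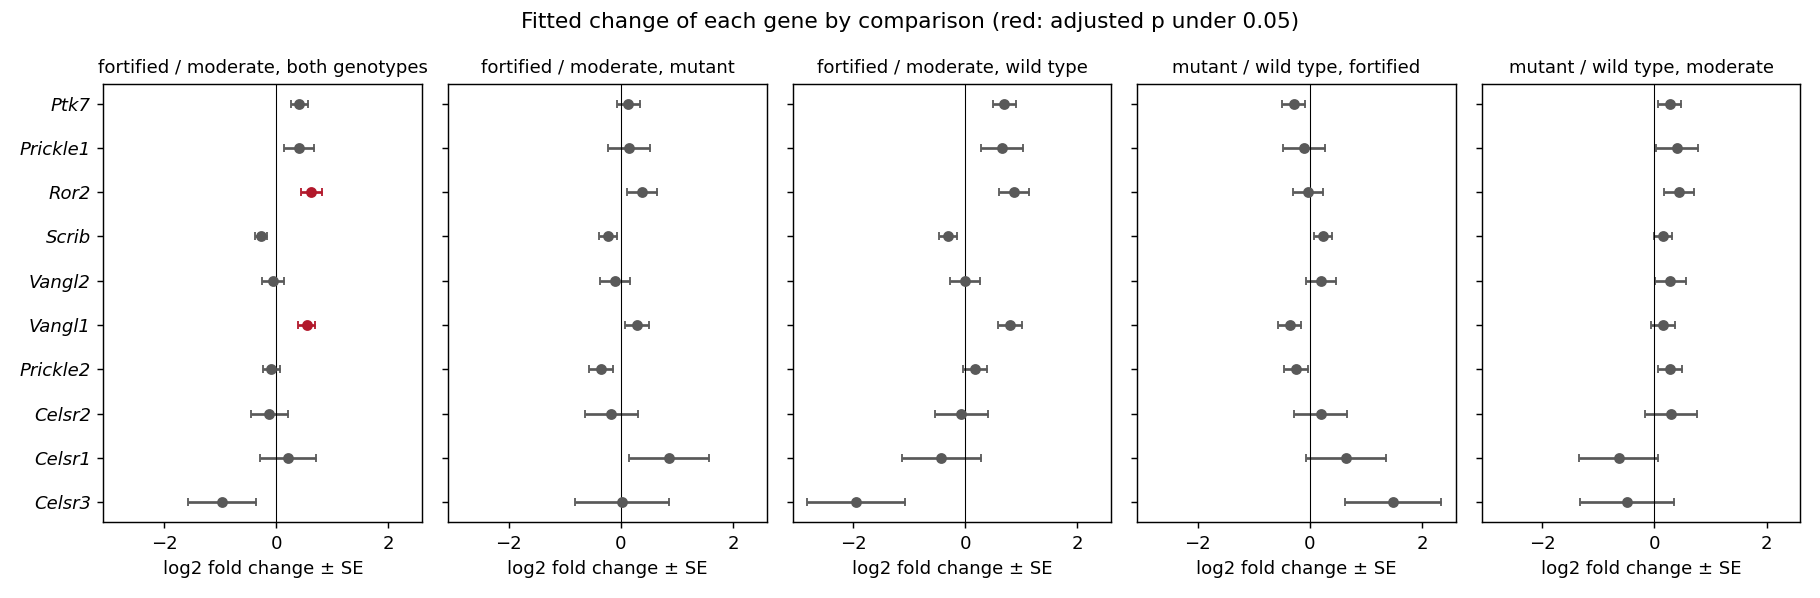
Fitted log2 fold change with its SE (horizontal axis) of each core gene (rows, ordered by mean TPM) in 5 comparisons, each with the group named first over the group named second. Red marks an adjusted p under 0.05: Ror2 at 0.63 and Vangl1 at 0.55 in fortified against moderate folic acid over both genotypes; the Celsr genes have the widest bars.

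Within wild type cells, none of the 10 genes passed edgeR's threshold, where 0.0263% of tested genes did. DESeq2 called 2 of the 10 (7.79% of all genes) and limma-voom 0 (0.112% of all), and 4 of the 10 had an unadjusted p under 0.05, a rule met by 19.6% of all tested genes. Vangl1 averaged 20.9 ± 2.00 CPM in fortified and 12.0 ± 2.98 CPM in moderate wild type cells (SD, n = 3 each; log2 fold change 0.80, edgeR adjusted p = 0.0918). Ptk7 averaged 454 ± 47.4 CPM in fortified and 280.5 ± 78.7 CPM in moderate wild type cells (log2 fold change 0.70, edgeR adjusted p = 0.115). For Vangl1 and Ptk7 the wild type groups did not overlap, a pattern that 20.6% of tested genes showed in either direction. Ror2 averaged 79.1 ± 15.7 CPM in fortified and 43.4 ± 18.0 CPM in moderate wild type cells (log2 fold change 0.87, edgeR adjusted p = 0.126). Without moderate wild type 1 the log2 fold change of Ror2 was 1.25 (edgeR adjusted p = 0.0187). With libraries 2 and 3 of that group left out instead, it was 0.32 in a fit where no gene passed.

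Within mutant cells, none of the 10 genes passed edgeR's threshold either, against 6.93% of all tested genes, and none had an unadjusted p under 0.05, against 25.6%. DESeq2 called 0 of the 10 (15.9% of all genes) and limma-voom 1, Prickle2 (-0.49, adjusted p = 0.0243), where limma-voom called 34.7% of all genes. Vangl1 averaged 16.2 ± 2.44 CPM in fortified and 13.2 ± 1.64 CPM in moderate mutant cells (SD, n = 3 each, as for the next values). Ptk7 averaged 371 ± 30.7 CPM in fortified and 339 ± 53.9 CPM in moderate mutant cells. Ror2 averaged 77.1 ± 12.2 CPM in fortified and 59.0 ± 9.35 CPM in moderate mutant cells. In TPM the order of the means turned for Vangl1, at 7.04 in fortified and 7.27 in moderate mutant cells, and for Ptk7, at 159 in fortified and 184 in moderate mutant cells. On log2(TPM + 1) the median change of all genes in mutant cells was -0.23, against 0.04 in the fit of counts. The log2 fold changes were 0.29 for Vangl1, 0.13 for Ptk7 and 0.39 for Ror2, each smaller than in wild type cells. That difference did not pass: the interaction of genotype and folic acid was -0.51 for Vangl1 (edgeR adjusted p = 0.719), -0.56 for Ptk7 (adjusted p = 0.708) and -0.48 for Ror2 (adjusted p = 0.755). The Ror2 value was 0.06 when libraries 2 and 3 of moderate wild type cells were left out. For the interaction edgeR called 0 of the 10 and 0% of all genes; 0 of the 10 and 6.68% of all genes had an unadjusted p under 0.05, and DESeq2 and limma-voom called 0 of the 10.

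Mutant against wild type cells gave no called gene among the 10 at either folic acid level. At fortified folic acid edgeR called 0% of all tested genes, 0 of the 10 had an unadjusted p under 0.05 against 3.29% of all, and DESeq2 and limma-voom called 0 of the 10. Vangl1, Prickle2 and Ptk7 were lower in every fortified mutant library than in every fortified wild type library, a pattern in that direction shared by 5.62% of tested genes. Their log2 fold changes were -0.36 for Vangl1 (SE 0.21), -0.24 for Prickle2 (SE 0.22) and -0.29 for Ptk7 (SE 0.20), with an edgeR adjusted p of 0.939 for each. Prickle2 was at 24.9, 24.6 and 19.2 CPM in fortified mutant cells and 29.7, 26.3 and 25.4 CPM in fortified wild type cells, so the nearest libraries of the groups were close.

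At moderate folic acid edgeR again called 0 of the 10 and 0% of all genes; 0 of the 10 and 7.87% of all genes had an unadjusted p under 0.05, and DESeq2 and limma-voom called 0 of the 10. The fitted change was positive for 8 of the 10 genes, against 43.6% of all tested genes, with a median log2 fold change of 0.27 against -0.05 over all. Ror2 had the smallest p of the 10 (0.44, SE 0.27, edgeR adjusted p = 0.717), followed by Ptk7 (0.27, SE 0.20, adjusted p = 0.784). Celsr1 and Celsr3 were the 2 with a negative change. The count turned with the moderate wild type libraries: without library 1 all 10 were positive with a median of 0.69, and without libraries 2 and 3, which leaves library 1 alone, 3 of the 10 were positive with a median of -0.11. Averaged over both folic acid levels edgeR called 0 of the 10 and 0% of all genes, and 0 of the 10 against 4.64% of all had an unadjusted p under 0.05; DESeq2 and limma-voom called 0 of the 10. Over all genes limma-voom called 0% in the interaction and in each comparison of genotypes, while DESeq2 called 0.0259% in the interaction, 0.0363% at fortified folic acid, 0.291% at moderate folic acid and 0.0622% over both levels.

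The Celsr genes varied widely between libraries of the same group. Celsr3 (chr9:108826320-108852969, plus strand), known in mice for its part in axon guidance, was at 1.50, 9.19 and 6.77 CPM in fortified mutant cells and 2.49, 2.27 and 1.48 CPM in fortified wild type cells. It was at 6.24, 7.40 and 3.55 CPM in moderate mutant cells and 19.9, 1.52 and 2.66 CPM in moderate wild type cells. A single moderate wild type library thus stood far above the others of its group, while the fortified wild type libraries stayed close together. The log2 fold change of fortified against moderate folic acid in wild type cells was -1.95 (SE 0.87, edgeR adjusted p = 0.243), and -0.0084 without moderate wild type 1. It was -3.25 when libraries 2 and 3 of that group were left out instead.

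Celsr1, whose loss in mice disturbs neural tube closure and hair orientation, behaved likewise. It was at 5.04, 7.36 and 15.8 CPM in fortified mutant cells and 6.76, 6.32 and 4.95 CPM in fortified wild type cells, against 6.25, 5.21 and 4.08 CPM in moderate mutant cells and 19.5, 2.39 and 2.36 CPM in moderate wild type cells. In wild type cells its log2 fold change for folic acid was -0.43 (SE 0.71, edgeR adjusted p = 0.767), and without fortified mutant 2 and 3 and moderate wild type 1 it turned to 1.34 (edgeR adjusted p = 0.0314). That fit keeps moderate wild type 2 and 3, the lowest of the 12 libraries for Celsr1; without those 2 instead the value was -1.69 (edgeR adjusted p = 0.108), in a fit where no gene passed. Averaged over both genotypes it was 0.22 (SE 0.50), and 1.10 without moderate wild type 1 (edgeR adjusted p = 0.0181). Leaving out libraries 2 and 3 of that group gave -0.42. Celsr2, known in mice for a role in ependymal cilia, ran from 4.83 to 15.6 CPM in fortified cells and from 4.83 to 16.9 CPM in moderate cells, with a log2 fold change of -0.12 (SE 0.33).

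Neuron markers, though not they alone, moved with Celsr1 and Celsr3. The summed level of 15 neuron markers, all of which were detected in every library, was 124 to 418 TPM in fortified mutant cells, 160 to 212 TPM in fortified wild type cells, 195 to 215 TPM in moderate mutant cells and 136 to 575 TPM in moderate wild type cells. The neuron marker score was highest in moderate wild type 1 (1.62), fortified mutant 2 (1.37), fortified mutant 3 (0.85) and moderate mutant 2 (0.18). Those 4 libraries were also the 4 highest for Celsr3, and the first 3 of them the 3 highest for Celsr1. These first 3 also had the 3 highest skeletal muscle marker scores (1.02, 1.07 and 0.79, in the same order). Their epithelium marker scores were the 3 highest as well (0.93, 1.15 and 0.68). They form one end of the first principal component, so the match of these 3 libraries was not specific to neuron markers. Elavl3, which encodes a neuronal RNA-binding protein, ran from 0.98 to 16.3 TPM, and Tubb3, a tubulin gene used as a neuron marker, from 9.85 to 104 TPM. The part of these markers in the Celsr levels was not tested.

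**Figure D3:**
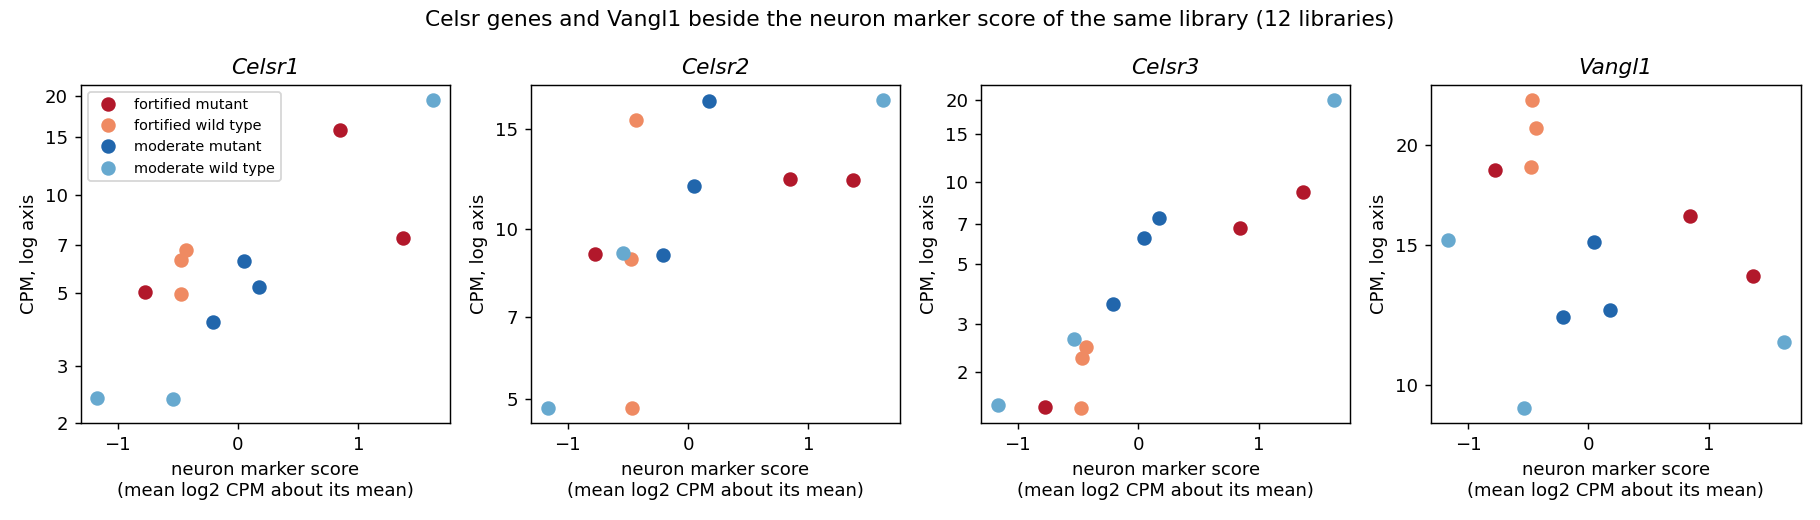
CPM of Celsr1, Celsr2, Celsr3 and, for contrast, Vangl1 (vertical axes, log scale) against the neuron marker score of the same library (horizontal axis, mean log2 CPM of 15 markers about their means), coloured by group. Moderate wild type 1, at a score of 1.62, is the highest library for Celsr1, Celsr2 and Celsr3, with 19.9 CPM for Celsr3, and is low for Vangl1 at 11.3 CPM. Its skeletal muscle (1.02) and epithelium (0.93) marker scores, not drawn, are high too.

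Balance within a family was read as the ratio of TPM between paralogues in the same library. Vangl1 made up 33.0 ± 6.27% of Vangl transcripts in fortified mutant cells, 42.1 ± 7.22% in fortified wild type cells, 27.1 ± 2.58% in moderate mutant cells and 29.9 ± 11.4% in moderate wild type cells (SD, n = 3 each). Fortified wild type 2 was the only library with more Vangl1 than Vangl2, at a ratio of 1.01. The log2 ratio of Vangl1 to Vangl2 was higher by 0.60 in fortified than in moderate cells (two-sided exact permutation test within genotype, p = 0.08, adjusted over 10 tests 0.267).

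Prickle1 outnumbered Prickle2 in every library, 5.09 to 9.10 times in fortified cells and 3.48 to 6.93 times in moderate cells. The log2 ratio was higher by 0.54 in fortified cells (exact permutation p = 0.03, adjusted 0.15). The ratio of Celsr1 to Celsr3 was at 3.52, 0.837 and 2.44 in fortified mutant cells and 2.84, 2.92 and 3.49 in fortified wild type cells, against 1.05, 0.736 and 1.20 in moderate mutant cells and 1.02, 1.65 and 0.929 in moderate wild type cells. In 5 of the 6 fortified libraries it exceeded every moderate library, the exception being fortified mutant 2; the log2 ratio was higher by 1.20 (exact permutation p = 0.015, adjusted 0.15). None of the 10 ratio tests, 5 pairs by folic acid and by genotype, passed after adjustment, and the smallest p this test can give is 0.005. The ratios were chosen after the values of the genes had been seen.

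Among the other genes of the pathway, 52 symbols in 8 lists by role were looked up and 50 tested. For fortified against moderate folic acid over both genotypes, 1 rose and 5 fell in edgeR, beside 17.8% of all tested genes called, and the median log2 fold change of the 50 was -0.0017, against 0.00036 over all tested genes. DESeq2 called 12 of the 50, against 24.4% of all genes, and limma-voom 9, against 25.3%, so none of the 3 tools called a share above that of the whole table. The 1 that rose was among 5 ligands and matrix cofactors: Cthrc1, a secreted protein that aids binding of Wnt ligands to Frizzled and Ror2 in mice. It was at 327, 162 and 138 CPM in fortified mutant cells and 119, 139 and 256 CPM in fortified wild type cells, against 97.1, 62.8 and 88.0 CPM in moderate mutant cells and 58.1, 76.9 and 30.9 CPM in moderate wild type cells. Every fortified library lay above every moderate library, a pattern of 6.37% of tested genes in either direction. The log2 fold change was 1.48 (SE 0.29, edgeR adjusted p = 0.00913). Wnt5a, the ligand of Ror2, had a log2 fold change of -0.0037 (SE 0.13), an average of opposite changes. It averaged 86.3 CPM in fortified and 112 CPM in moderate mutant cells, but 125 CPM in fortified and 97.3 CPM in moderate wild type cells. The interaction was -0.74 (SE 0.27, edgeR adjusted p = 0.708) and did not pass. In limma-voom the fall in mutant cells passed (-0.58, adjusted p = 0.0124), where 34.7% of all genes were called.

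Of 5 Frizzled and Wnt co-receptor genes 1 fell. The receptor gene Fzd7 was at 98.7, 132 and 148 CPM in fortified mutant cells and 129, 163 and 112 CPM in fortified wild type cells, against 236, 263 and 208 CPM in moderate mutant cells and 183, 219.6 and 180.0 CPM in moderate wild type cells. The folic acid levels did not overlap, and the log2 fold change was -0.71 (SE 0.13, edgeR adjusted p = 0.00787). Fzd6, a Frizzled that acts in hair and neural tube polarity in mice, had a log2 fold change of 0.58 (SE 0.20, edgeR adjusted p = 0.0695), opposite in sign to Fzd7. It passed in DESeq2 (0.57, adjusted p = 0.0394), in edgeR without moderate wild type 2 (0.77, adjusted p = 0.0207) or without both that library and moderate wild type 3 (0.84, adjusted p = 0.0402), and in none of the other 21 settings. Cthrc1 and Fzd7 passed in all 23 other settings in which any gene of the table passed.

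The other 4 called genes were each 1 of 6 tested in a list, and all 4 fell. Ankrd6, the mouse counterpart of the fly polarity protein Diego, was at 1.92, 2.87 and 2.62 CPM in fortified mutant cells and 2.12, 1.45 and 2.53 CPM in fortified wild type cells. It was at 4.31, 4.79 and 5.10 CPM in moderate mutant cells and 2.88, 3.01 and 4.93 CPM in moderate wild type cells. The change was -0.88 on the log2 scale (SE 0.23, edgeR adjusted p = 0.0250). Git1, a partner of Scrib, fell by 0.40 on the log2 scale (adjusted p = 0.0209) and the ubiquitin ligase gene Smurf1 by 0.41 (adjusted p = 0.0422), both by edgeR. Fat1, an atypical cadherin gene, fell by 0.62 (edgeR adjusted p = 0.0433). The Smurf1 call held in 10 of these 23 settings and the Fat1 call in 11 of 23, with adjusted p values of up to 0.193 and 0.140. The Ankrd6 call held in 18 of 23 and the Git1 call in 20 of 23.

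**Figure D4:**
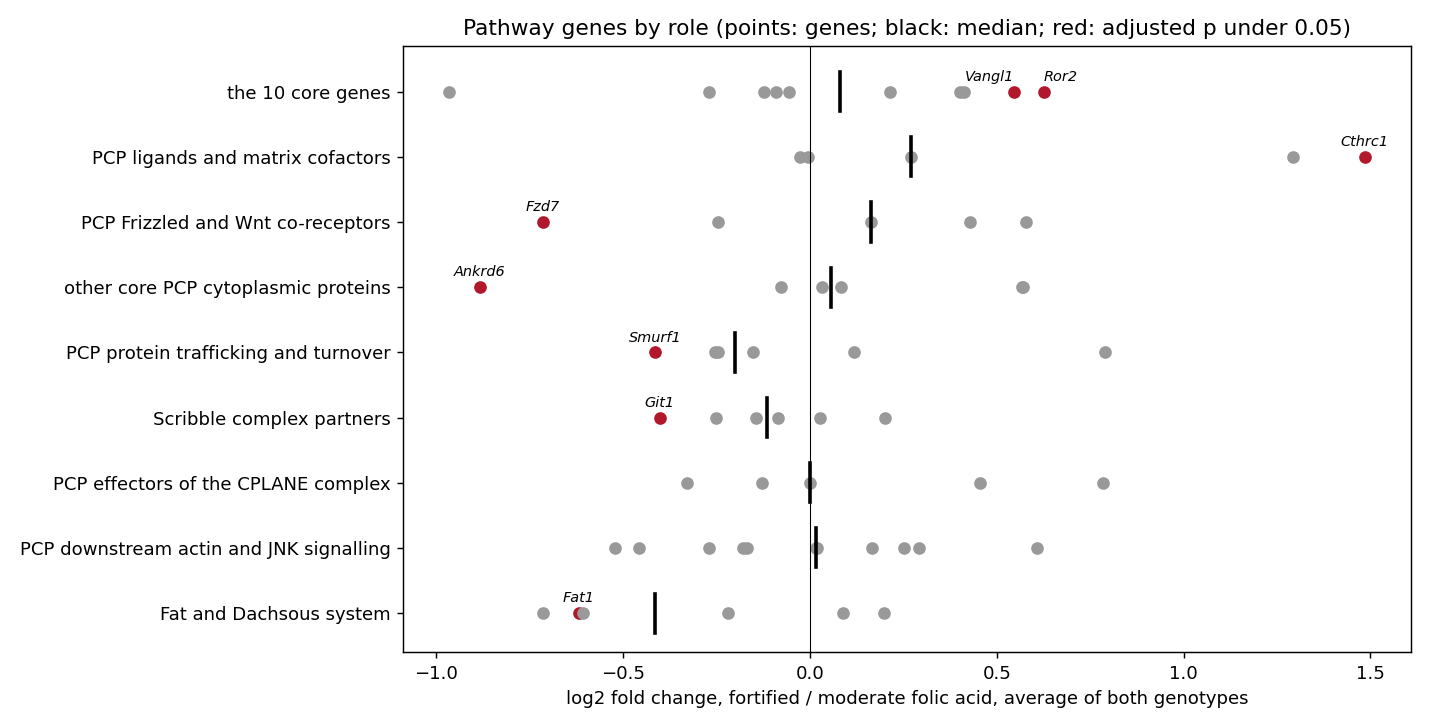
Fitted log2 fold change of fortified against moderate folic acid over both genotypes (horizontal axis) for the 10 core genes and for 50 other pathway genes in 8 lists by role (rows). Points are genes, black bars list medians, and red points passed an adjusted p of 0.05: Cthrc1 lies at 1.48 and Fzd7 at -0.71, on opposite sides of 0.

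Within mutant cells 2 of the 50 fell with folic acid, Fzd7 (-0.90, edgeR adjusted p = 0.0261) and Fat1 (-1.01, edgeR adjusted p = 0.0459), and 0 rose. All genes were called at 6.93% in this comparison. DESeq2 called 6 of the 50 in mutant cells, against 15.9% of all genes, and limma-voom 15, against 34.7%. Fat1 was at 621, 999 and 1477 CPM in fortified mutant cells and 2009, 1997 and 2250.0 CPM in moderate mutant cells. It was at 1362, 1212 and 951 CPM in fortified wild type cells and 1267, 1472 and 1371 CPM in moderate wild type cells. For the interaction of genotype and folic acid edgeR called 0% of all tested genes, so a difference in the Fat1 change between genotypes did not pass. The Fat1 call in mutant cells held in 13 of 23 other settings in which any gene passed and the Fzd7 call in 20 of 23. Without moderate mutant 1, or without moderate mutant 2, no gene of the table passed in mutant cells, Fat1 and Fzd7 included. In wild type cells 0 of the 50 passed in edgeR, where Cthrc1 had the smallest p (1.63, adjusted p = 0.0886), followed by Fzd6 (0.97, adjusted p = 0.118). Of the 50, 13 had an unadjusted p under 0.05 in edgeR, against 19.6% of all tested genes. DESeq2 called 3 (Cthrc1, Fzd6 and Rnf41), against 7.79% of all genes, and limma-voom 0.

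Mutant against wild type cells gave 0 called genes among the 50 at either folic acid level in edgeR, DESeq2 or limma-voom. In edgeR 2 of the 50 had an unadjusted p under 0.05 at fortified folic acid, against 3.29% of all genes, and 5 at moderate folic acid, against 7.87%. At fortified folic acid Wnt5a had the smallest p, with a log2 fold change of -0.54 (SE 0.19, edgeR adjusted p = 0.939). At moderate folic acid it was Dvl3, a Dishevelled gene (0.40, SE 0.14, edgeR adjusted p = 0.597). The 5 CPLANE genes measured, Rsg1 among them, had no call in any of the 7 comparisons in edgeR or DESeq2. In limma-voom Cplane1, which the table lists as 2410089E03Rik, passed in mutant cells (-0.39 for fortified against moderate folic acid, adjusted p = 0.0314). Limma-voom called 34.7% of all genes in that comparison. Rsg1 itself had a log2 fold change of -0.22 (SE 0.38) in fortified and 0.38 (SE 0.38) in moderate mutant cells against wild type.

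For each core gene the most similar profiles over the 12 libraries were looked up among 14274 tested genes, by root mean square difference of centred log2 CPM. For Scrib they included Fbxl19 and Bcl7a (0.083 and 0.089). They were, for Ptk7, Tmem184b, Dip2a and Stat3 (0.099 to 0.10) and, for Vangl1, Lman1, Fkbp9 and Tmem184b (0.097 to 0.13). Vangl1 and Ptk7 thus had Tmem184b in common. For Ror2 they were Nhs, Slc8a1 and Ttyh3 (0.098 to 0.14) and for Prickle1 Ptprs, Slc8a1 and Ttyh3 (0.15 to 0.20), with 2 of 3 in common. Vangl2 had Zfp532, Mex3a and Arhgap32 (0.13 each), and Prickle2 had Ube3b, Sec24c and Nisch (0.15 to 0.16). The Celsr genes were less closely matched: Celsr1 with Grin3a, Gria4 and Grik1 (0.29 to 0.33), Celsr2 with Tmem200c, Ralgps2 and Pik3c2b (0.21 to 0.27) and Celsr3 with genes that included Wnk2 and Mast1 (0.23 and 0.25).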

How the data were processed

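Per gene, the authors deposited estimated counts and TPM in separate tables, from salmon per the file names; the genome named in the submitters' processing notes is mm10, while salmon's version, the annotation and strand use are, for these tables, not given in the sources used here. Libraries were made from polyadenylated RNA with a TECAN kit, per the labels. The deposited estimated counts were rounded to whole numbers. The deposited TPM values were used for levels per length and as an alternative.

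The fit used all 12 libraries, with 1 mean for each of the 4 groups, in edgeR 4.0.16 (glmQLFit, glmQLFTest; R 4.3.3), after filterByExpr (minimum count 10, minimum total 15) and TMM scaling (factors 0.91 to 1.08); the common biological coefficient of variation was 0.332. For each of 7 comparisons p values were adjusted by Benjamini-Hochberg over its 15186 genes and called under 0.05. Log2 CPM used a prior count of 2. Celsr3, with 59 counts in its lowest library, had the largest counting error of the 10. No libraries held identical values. The procedure was tested on simulated counts, drawn independently for each gene and library. Those counts lack the shared differences between libraries that the first principal component showed.

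The 10 genes, the pathway and marker lists and the rules were chosen with earlier results of these data known. Named genes were the 10, pathway genes called in a comparison (or the 3 of smallest p) and the 3 nearest profiles of each of the 10, some of which are not reported here. Alternatives were DESeq2 1.42.0, limma 3.58.1 (voom with quality weights, and log2(TPM + 1) and log2(TPM + 0.1)), other scalings and filters, a replicate block, the compared groups alone and leaving out each library. Leaving out the 3 or the 2 libraries at either end of the first principal component and keeping the 8 with at least 1000 Xist counts were chosen after seeing the data. Promoters and coordinates came from RefSeq (GRCm38.p6) and GENCODE M21. Of the 52 pathway symbols, Cplane1 was found under its older symbol 2410089E03Rik and Dchs2 was not analysed here.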

Additional observations from a re-analysis of the deposited data

How the results depend on the processing

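Of 1720 values of the 10 genes under alternatives, 1535 kept their sign and their side of the threshold, 149 changed sign without passing, 11 newly passed, 24 no longer passed and 1 reversed past it. For fortified against moderate folic acid over both genotypes, where 2 of the 10 passed, leaving out 1 library gave 0 to 3; TPM with either pseudocount gave 1 (Scrib), library totals alone 1 (Vangl1), leaving out moderate wild type 2 and 3 1 (Vangl1) and the 8 libraries with Xist 0, where 0 of all genes passed. In wild type cells, where 0 passed, DESeq2 gave 2 (Vangl1, Ptk7), leaving out the 3 libraries at the upper end of the first component 2 (Celsr1, Ror2) and leaving out 1 library 0 to 1. In that fit without 3 libraries, Celsr1 reversed to 1.34. In mutant cells limma-voom gave 1. The causes were not tested. Vangl1 lost its call without moderate mutant 2 or 3, fortified mutant 1 or 3, or fortified wild type 1 or 2 (adjusted p 0.0529 to 0.0733). Ror2 lost its call without any library except moderate wild type 1 and fortified wild type 2 (0.0530 to 0.0995), and with library totals alone (0.0866).

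Same-numbered libraries did not deviate together (correlations -0.477 to 0.244, with 3 of 12 libraries correlating best with their own number), so no pairing by number was visible. This check cannot show whether libraries of the same number shared a litter or a culture day, which the labels do not state. With the replicate block, 2 of the 10 passed over both genotypes and 0 in each other comparison. Over all genes the block gave 559 calls against 1053 in mutant cells, 65 against 4 in wild type cells and 2309 against 2696 over both genotypes.

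Over all genes in mutant cells, DESeq2 called 2349, limma-voom 5273, TPM + 1 2814 and leaving out 1 library 0 to 2073. In wild type cells DESeq2 called 1154, leaving out the 3 libraries 1298 and leaving out 1 library 1 to 1012. Over both genotypes TPM + 1 called 587 higher and 3154 lower, against 1351 higher and 1345 lower, and moved the median of all genes by -0.15 on the log2 scale (-0.20 with TPM + 0.1). Celsr3, at 59 to 921 counts, is the least precisely counted of the 10.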
